A study of Mus musculus and Homo sapiens with 9 samples.

Results

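Mouse chromosome 7 carried 2081 of the 44427 peaks called in 5 CUT&Tag libraries of mouse embryo fibroblasts (MEFs). The members were all peaks listed on chromosome 7 of the mm10 build, with no limit on their strength. The chromosome was chosen because its share of the peak list was low in the shControl and shDdx5 libraries, so the shares themselves are given below as a description and without a test. They were counted in fixed bins of 5 Mb, to see whether the low share spanned the whole chromosome or a segment of it.

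Each library stood alone in its group. WT and KO were MEFs labelled Mcm8 wildtype and Mcm8 knockout, both probed with the S9.6 antibody. The shControl and shDdx5 libraries, labelled control and Ddx5 knockdown, were probed with the same antibody, and the knockdown was delivered by an adenovirus carrying a short hairpin RNA. A library of wildtype MEFs taken through the assay without a primary antibody served as the background. MEFs were made from the trunks of mid-gestation embryos of crosses between Mcm8 heterozygotes on a mixed C57BL/6J and ICR background, and were immortalized with SV40 by lentivirus and selected with puromycin, as the methods describe. The labels do not say which embryo or culture gave the shControl and shDdx5 cells, and the adenovirus, the culture and the library preparation go together with these groups and cannot be told apart. All intervals cover counting error only, and every difference is one between single libraries, not between conditions.

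An R-loop forms when a nascent transcript pairs with its template strand and leaves the other DNA strand unpaired, which is common at active promoters, above all where the displaced strand is rich in G. S9.6 recognises RNA-DNA hybrids, and in CUT&Tag the bound antibody brings a transposase that cuts and tags the DNA nearby. MCM8 is a helicase of the MCM family that acts in homologous recombination, and DDX5 is a DEAD-box RNA helicase that can unwind RNA-DNA hybrids. Mouse chromosome 7 is rich in genes: it holds large families of olfactory and vomeronasal receptors and zinc finger proteins, and the imprinted clusters around Peg3, Snrpn, and H19 and Kcnq1.

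The sites below show what a chromosome 7 peak looked like where all 4 S9.6 libraries had one. They are 5 of the first 6 in order of the lowest fold enrichment that a site reached in any of those libraries. Each sequence is the 201 bases around the WT summit, from the reference genome of RefSeq for GRCm38 (mm10), on the plus strand from 5′ to 3′. Capitals mark runs of at least 3 G or 3 C.
Relb, chr7:19628562-19628762: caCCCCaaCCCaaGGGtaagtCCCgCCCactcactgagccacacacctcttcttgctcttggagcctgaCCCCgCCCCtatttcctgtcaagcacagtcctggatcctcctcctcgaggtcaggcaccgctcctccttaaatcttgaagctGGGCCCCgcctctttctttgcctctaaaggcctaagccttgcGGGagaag
Pstk, chr7:131371215-131371415: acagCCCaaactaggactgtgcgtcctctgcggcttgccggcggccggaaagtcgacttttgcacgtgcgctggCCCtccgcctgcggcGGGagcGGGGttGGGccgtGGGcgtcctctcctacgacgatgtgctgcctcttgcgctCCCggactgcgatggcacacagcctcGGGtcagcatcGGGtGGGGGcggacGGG
Ccdc9, chr7:16286305-16286505: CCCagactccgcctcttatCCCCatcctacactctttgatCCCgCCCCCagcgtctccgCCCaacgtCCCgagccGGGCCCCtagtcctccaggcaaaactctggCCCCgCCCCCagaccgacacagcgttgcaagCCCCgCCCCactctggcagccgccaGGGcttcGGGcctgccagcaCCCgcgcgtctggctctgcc
Zfp78, chr7:6362841-6363041: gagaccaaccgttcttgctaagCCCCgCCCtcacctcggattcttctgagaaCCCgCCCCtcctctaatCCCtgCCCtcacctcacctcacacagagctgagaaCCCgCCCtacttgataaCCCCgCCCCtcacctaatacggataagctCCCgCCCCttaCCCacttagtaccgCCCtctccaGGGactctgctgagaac
Napa, chr7:16098201-16098401: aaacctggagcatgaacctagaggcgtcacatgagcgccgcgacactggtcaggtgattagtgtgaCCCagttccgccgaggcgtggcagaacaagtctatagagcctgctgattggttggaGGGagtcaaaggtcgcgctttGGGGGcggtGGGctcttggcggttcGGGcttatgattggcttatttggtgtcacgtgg
Relb encodes a subunit of NF-κB, Pstk a kinase that acts on the transfer RNA for selenocysteine, Napa a SNARE adaptor of vesicle fusion, and Zfp78 a zinc finger protein. The 5 windows lay at the promoters of these genes, and their GC content ran from 57.2% at Napa to 70.1% at Ccdc9. The Zfp78 window held 14 runs of C and 1 run of G, the most uneven of the 5. Relb and Zfp78 also had a peak without antibody, so their signal was not particular to S9.6.

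The part of each list that lay on chromosome 7 separated the shControl and shDdx5 libraries from the rest. Of the 6481 WT peaks, 415 were on chromosome 7, which is 6.40% (Wilson 95% interval 5.83 to 7.03). In KO the count was 575 of 9605, or 5.99% (5.53 to 6.48). The no-antibody list, with 283 of 4314 peaks, gave 6.56% (5.86 to 7.34). These 3 intervals overlapped. ShControl had 406 of 12259 peaks on the chromosome, or 3.31% (3.01 to 3.64), and shDdx5 had 402 of 11768, or 3.42% (3.10 to 3.76). By number of peaks among 21 chromosomes, chromosome 7 ranked 4 in WT, 5 in KO and 4 without antibody, but 19 in shControl and 18 in shDdx5.

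**Figure D1:**
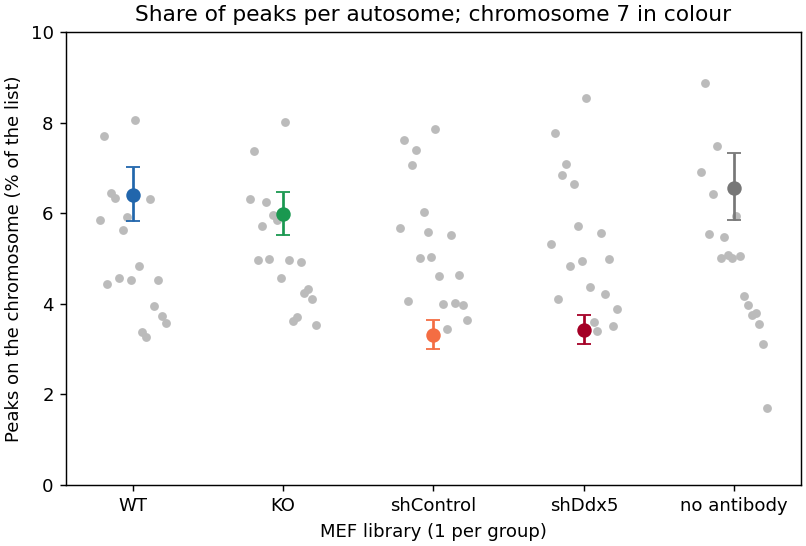
Percent of each list's peaks on each autosome (y axis) in the 5 MEF libraries (x axis). Coloured points are chromosome 7 with Wilson 95% intervals and grey points the other 18 autosomes. Chromosome 7 lies between 5.99% and 6.56% in WT, KO and no antibody, and at 3.31% and 3.42% in shControl and shDdx5.

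Relative to WT, the share was 0.517 in shControl (95% interval 0.453 to 0.591) and 0.533 in shDdx5 (0.467 to 0.610). Relative to KO it was 0.553 and 0.571. The KO share was 0.935 of that in WT (0.827 to 1.06), and the shDdx5 share 1.03 of that in shControl (0.901 to 1.18). In neither of these pairs did the share of the whole chromosome differ beyond counting error. Had the WT share held, chromosome 7 would have carried 785 peaks in shControl and 754 in shDdx5. The other 18 autosomes had ratios to WT between 0.875 (chromosome 15) and 1.18 (chromosome 13) in shControl, and between 0.881 (chromosome 15) and 1.18 (chromosome 8) in shDdx5. Chromosome X went the other way, with 0.494% of the WT list and 1.53% and 1.21% of the shControl and shDdx5 lists. Without antibody it held 2.57% of the list. In that library the ratios to WT of the other 18 autosomes spread more widely, from 0.475 (chromosome 19) to 1.25 (chromosome 3). Leaving chromosomes 7, 15 and X out of the denominator gave a chromosome 7 ratio of 0.501 in shControl and 0.515 in shDdx5. That alternative was added after the data were seen.

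**Figure D2:**
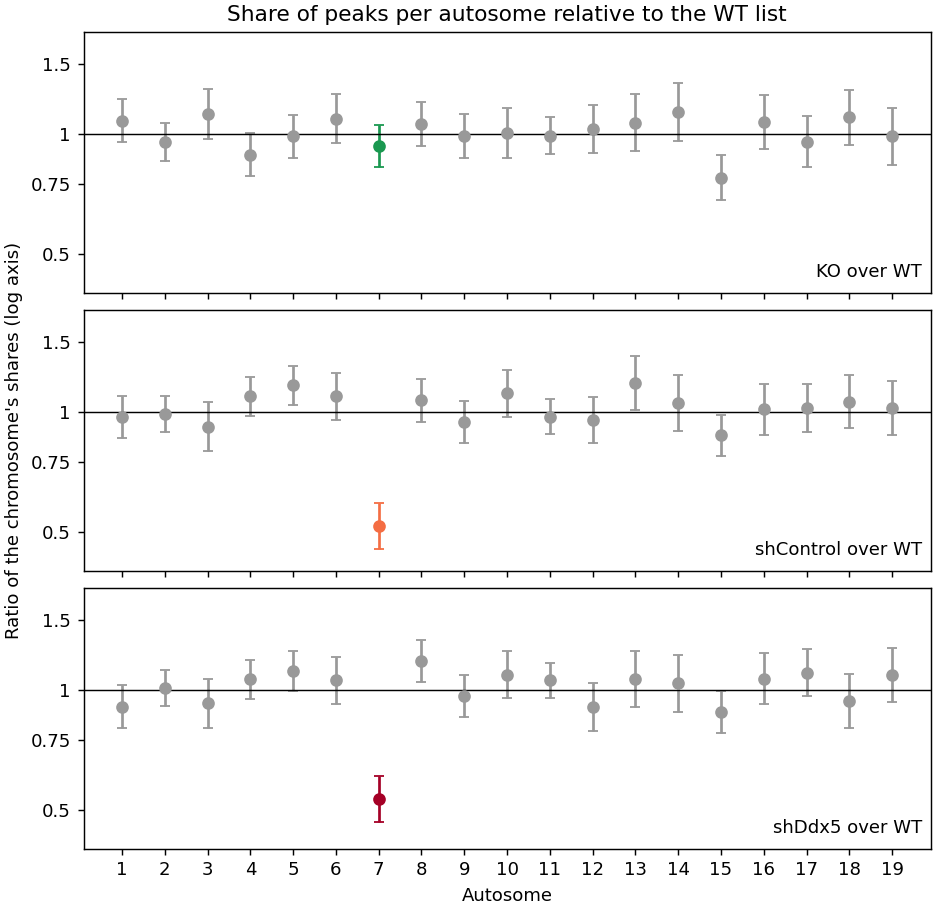
Ratio of each autosome's share of peaks to its share in the WT list (y axis, log scale) for KO, shControl and shDdx5, with 95% intervals for counting error. Chromosome 7, in colour, is at 0.935 in KO and at 0.517 and 0.533 in shControl and shDdx5, where the lowest other autosome is at 0.875 and 0.881.

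The ratio depended on the strength of the peaks counted. With peaks of at least 4-fold enrichment only, it was 0.739 in shControl and 0.814 in shDdx5. With a q value of 0.05 or lower it was 0.607 in shControl and 0.595 in shDdx5, the latter within the interval of the value for all peaks. With the 4314 strongest peaks of each list it was 0.612 and 0.685. Fold enrichment is the pileup of fragments at the summit over a local background, and the local background was itself lower on chromosome 7 in these libraries (the medians are given with the pileups). By strength, the chromosome 7 share of shDdx5 was 2.35% (1.86 to 2.96) in the weakest 25% of the list by p-value and 4.45% (3.76 to 5.26) in the strongest 25%. In shControl these were 2.58% (2.07 to 3.20) and 4.08% (3.43 to 4.84). In WT they were 6.48% and 6.97%, and in KO 5.66% and 5.58%. The share in both hairpin libraries was thus lower among the weakest peaks than among the strongest, and still below that of WT among the strongest.

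Nearly every bin of the chromosome took part. A bin was compared where the pair of lists together had at least 5 peaks in it, and its count was given per 1000 peaks of the list. The shControl value was below WT in 25 of 26 bins, against 44.9% of all such bins of the genome. For shDdx5 it was 25 of 27, against 47.7%. Taking both libraries at once, 24 of 26 bins were below WT in each of them, against 34.2%. The highest share of lower bins on another autosome was 72.2% in shControl and 83.3% in shDdx5, each time on chromosome 15. Since the chromosome was chosen on the same comparison, these counts describe how the deficit was spread and nothing more.

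The same held against the KO list. ShControl was lower in 26 of 26 bins (49.1% of bins genome-wide) and shDdx5 in 23 of 27 (51.5%). KO itself was below WT in 13 of 26 bins (44.9%), and shDdx5 below shControl in 13 of 27 (54.5%). A value lower by a factor of 2 or more was found in 11 of the 26 bins for shControl against WT (3.83% genome-wide), in 10 of 27 for shDdx5 against WT (5.23%), in 11 of 26 for shControl against KO (5.22%) and in 13 of 27 for shDdx5 against KO (8.4%). With the 4314 strongest peaks of each list, fewer bins could be compared, and 16 of 21 and 16 of 22 were below WT in shControl and shDdx5. No share over all bins of the genome is given for this setting.

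**Figure D3:**
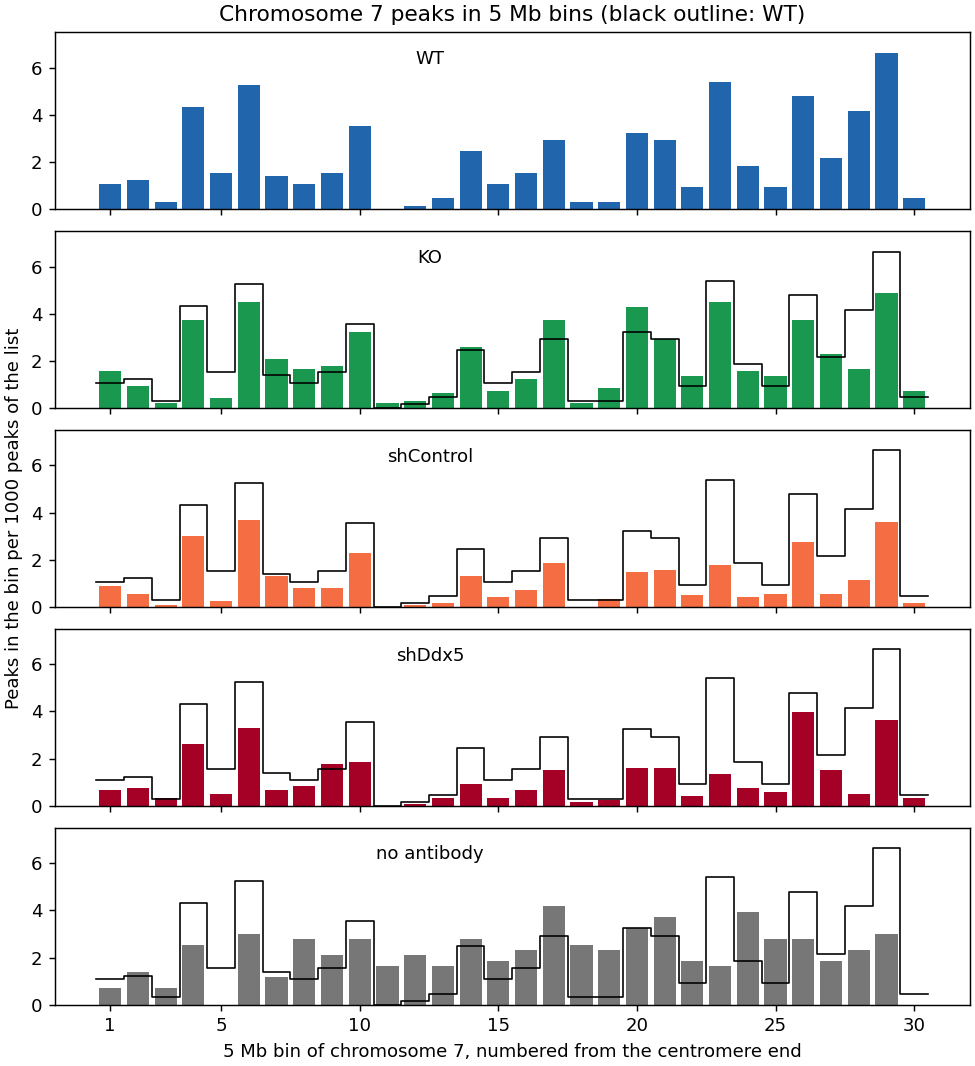
Peaks in each of the 30 bins of 5 Mb along chromosome 7 (x axis) per 1000 peaks of the list (y axis), in 5 libraries; the black outline repeats the WT values. The shControl and shDdx5 bars stay under the outline in nearly all bins. Most tall bins of WT are tall in each S9.6 library. Exceptions are the bins at 110 to 115 Mb and 135 to 140 Mb, at 5.40 and 4.17 in WT but 1.36 and 0.510 in shDdx5.

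The bins with the most WT peaks were those at 140 to 145 Mb, 110 to 115 Mb, 25 to 30 Mb, 125 to 130 Mb and 15 to 20 Mb. At 140 to 145 Mb, which holds the imprinted H19 and Kcnq1 domain, there were 43 peaks in WT and 47 in KO, and 44 in shControl and 43 in shDdx5. Per 1000 peaks of the list this was 6.63, 4.89, 3.59 and 3.65. At 110 to 115 Mb the counts were 35, 43, 22 and 16, or 5.40, 4.48, 1.79 and 1.36 per 1000. At 25 to 30 Mb they were 34, 43, 45 and 39, or 5.25, 4.48, 3.67 and 3.31 per 1000. The bin at 125 to 130 Mb had 31, 36, 34 and 47 peaks and that at 15 to 20 Mb had 28, 36, 37 and 31. In each of these 5 bins both hairpin libraries were below WT and KO per 1000 peaks except that shDdx5, at 3.99 per 1000, was above the 3.75 of KO at 125 to 130 Mb.

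From WT to shControl the value fell by 3.61 per 1000 at 110 to 115 Mb, the deepest fall of any bin. It fell by 3.05 at 140 to 145 Mb and fell by 3.02 at 135 to 140 Mb. At 125 to 130 Mb it fell by 2.01, and at 95 to 100 Mb it fell by 1.77. The bin at 135 to 140 Mb had 27 peaks in WT and 14 and 6 in shControl and shDdx5, but it also had only 16 in the longer KO list. Without these 5 bins the ratio to WT was 0.561 in shControl and 0.578 in shDdx5, so they did not carry the low share alone. The exceptions were few. Bin 19, at 90 to 95 Mb, had 2 peaks in WT and 4 in shControl. ShDdx5 was above WT at 40 to 45 Mb, with 21 peaks against 10, and at 10 to 15 Mb, with 4 against 2.

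The deficit was deeper toward the end of the chromosome in shControl. From the start to 50 Mb, the shControl share was 0.644 of WT (0.515 to 0.805). From 50 to 100 Mb it was 0.509 (0.374 to 0.694), and beyond 100 Mb 0.432 (0.351 to 0.531). The intervals of the first and last stretch overlapped. ShDdx5 gave 0.631 (0.503 to 0.791), 0.476 (0.346 to 0.654) and 0.489 (0.400 to 0.598), with no such order. KO gave 0.944, 1.18 and 0.826, the last with an interval of 0.686 to 0.995 that ended just under 1.

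The profile along the chromosome was otherwise shared. Over the 30 bins, the Spearman rank correlation between the counts of WT and those of KO, shControl and shDdx5 was 0.904, 0.898 and 0.878, and it was 0.501 between WT and the no-antibody library. Between the counts and the number of protein-coding genes in a bin it was 0.528 in WT, 0.573 in shControl, 0.649 in shDdx5 and 0.238 without antibody. These values are descriptions, since neighbouring bins and the libraries share the same genome and gene content.

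The peak-poor stretches fell in similar places. The longest stretch without a peak in WT ran for 7.70 Mb (chr7:56237139-63937875) and held 17 protein-coding genes, among them the imprinted Snrpn, Ndn and Magel2 of the region homologous to the human Prader-Willi domain. ShDdx5 had its longest gap there too (chr7:55962699-63938668, 7.98 Mb). In shControl the longest gap was 9.65 Mb (chr7:49575340-59228428), and it ended at the promoter of Ube3a, the imprinted ubiquitin ligase gene. KO had 6 peaks and WT and shDdx5 had 3 each in that interval, and the no-antibody library had 17. The second gap of shControl spanned chr7:84606242-90476069 with 55 protein-coding genes, 33 of them olfactory or vomeronasal receptors. The second of WT (chr7:6729650-13054434), the first of KO (chr7:6729562-12985578) and the second of shDdx5 (chr7:6728970-12977770) began at Peg3 and held 47 receptor genes each. The second of KO was at chr7:50253682-55842074. Peaks without antibody were present in every one of these gaps.

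Peaks shared by a pair of libraries were also lower on chromosome 7 in shControl and shDdx5. The pileup, the whole number of fragments at the summit, was worked back from the fold enrichment and the p-value of each peak. At the 82 pairs of overlapping WT and shControl peaks on chromosome 7, the median ratio of shControl to WT pileup was 0.778, against 0.941 at 1309 pairs on the other chromosomes. At 81.7% of the chromosome 7 pairs the pileup was lower in shControl, against 51.6% elsewhere. For shDdx5 over WT the median was 1.07 at 120 pairs against 1.25 at 1813. Relative to KO the medians were 0.778 against 0.917 in shControl, and 1.00 against 1.22 in shDdx5. Chromosome 7 was the lowest of the 19 autosomes in each of these 4 comparisons. For KO over WT the median was 1.00 on chromosome 7 and elsewhere, and for shDdx5 over shControl it was 1.37 on chromosome 7 and 1.29 elsewhere. A pair enters only if both peaks were called, so these ratios leave out the sites that one library missed.

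**Figure D4:**
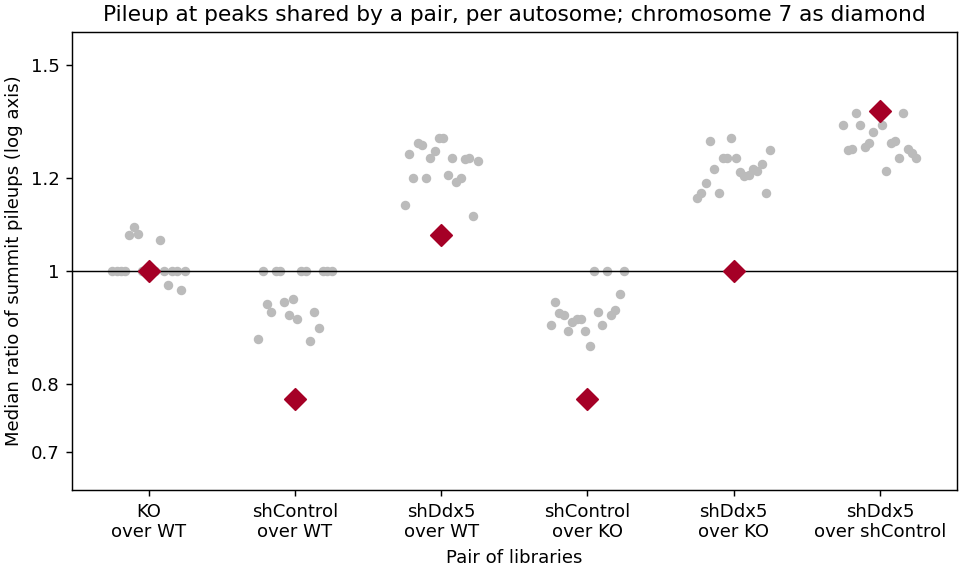
Median ratio of summit pileups (y axis, log scale) at peaks shared by a pair of libraries (x axis), per autosome. The diamond is chromosome 7, which lies at 0.778, 1.07, 0.778 and 1.00 below all 18 other autosomes (grey) in the comparisons of shControl and shDdx5 with WT and KO, and among or above them in the other comparisons.

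The pileup of shControl was below that of WT in each stretch of the chromosome. For shControl over WT the medians of the stretches to 50 Mb, to 100 Mb and beyond were 0.786, 0.783 and 0.727, from 37, 14 and 31 pairs. For shDdx5 over WT they were 1.11, 1.11 and 1.00, not below WT but below the 1.25 of the other chromosomes as a whole. The surroundings of the peaks moved in the same direction. The median local background, in fragments, was 2.16 on chromosome 7 and 1.96 elsewhere in WT, and 1.82 and 1.67 in KO. In shControl it was 1.48 and 1.58, and in shDdx5 1.92 and 2.13, so it was the lower on chromosome 7 in the hairpin libraries. MACS2 takes as background the largest of a genome-wide value and local ones, so a background above the list's lowest value marks a peak in well-covered surroundings. On chromosome 7 this was the case for 89.4% of WT peaks (86.1 to 92.0) and 84.5% of KO peaks (81.3 to 87.2), above the 84.8% and 78.0% of the other chromosomes. In shControl it was 53.2% (48.3 to 58.0) against 62.3%, and in shDdx5 71.1% (66.5 to 75.4) against 80.7%. Without antibody it was 83.7% against 77.2%. Counted from the lowest of 20 chromosomes, chromosome 7 ranked 20 in WT and 18 in KO, but 5 in shControl and 4 in shDdx5. It was not the lowest: chromosomes 3, 13 and X were below it in both hairpin libraries, and chromosome 1 in shControl. Peak lists hold no coverage outside peaks, so fewer reads from the chromosome as a whole and fewer RNA-DNA hybrids on it cannot be told apart.

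Chromosome 7 peaks were closer to genes than those of other chromosomes in every list. A peak counted as a promoter peak if its middle was no more than 1 kb from a transcription start site. In WT 46.3% of chromosome 7 peaks were at promoters (41.5 to 51.1), against 36.5% elsewhere. In KO it was 43.1% (39.1 to 47.2) against 35.7%. In shControl it was 44.8% (40.1 to 49.7) against 26.6%, and in shDdx5 62.7% (57.9 to 67.3) against 42.3%. Even without antibody 14.5% (10.9 to 19.1) were at promoters, against 7.99%.

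**Figure D5:**
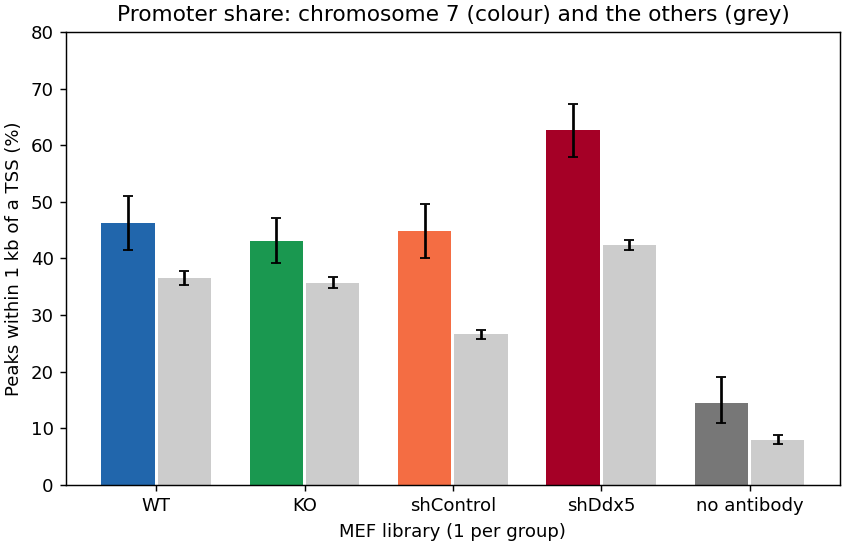
Percent of peaks within 1 kb of a transcription start site (y axis) on chromosome 7 (coloured bars) and on the other chromosomes (grey bars) in the 5 libraries (x axis), with Wilson 95% intervals. The chromosome 7 bar is the taller one in each library, 44.8% against 26.6% in shControl and 62.7% against 42.3% in shDdx5.

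The share of the list on chromosome 7 was low in both hairpin libraries at promoters and away from them. Among promoter peaks, chromosome 7 made up 7.98% in WT and 7.14% in KO, and 5.45% in shControl and 4.98% in shDdx5, or 0.683 and 0.624 of WT in shControl and shDdx5. Among the other peaks it made up 5.47%, 5.33%, 2.51% and 2.24%. The ratio to WT was 0.409 in shDdx5 there. Split in this way, which was also added after the data were seen, shControl and shDdx5 stayed below WT in both classes.

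In sequence, the chromosome 7 summits were somewhat richer in GC. With 150 bases taken on either side of the summit, the median GC content was 54.8% in WT and 53.2% in KO, and 53.8% in shControl and 58.1% in shDdx5, against 52.2%, 51.5%, 50.2% and 53.5% on the other chromosomes. Without antibody it was 45.2% against 43.9%. Windows with at least 3 runs of GGG on one strand, the kind of sequence shown for Relb and Pstk above, made up 94.9% in WT and 95.5% in KO, and 94.3% in shControl and 97.3% in shDdx5, against 91.0%, 91.6%, 88.1% and 91.4% elsewhere. Of the no-antibody windows 82.0% had them, against 74.9% elsewhere, so such runs were also common at peaks called without S9.6. Windows outside peaks were not counted. At promoters alone the median GC content of chromosome 7 was 59.8% in WT and 59.3% in shControl, against 62.5% and 60.8% on the others.

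Most chromosome 7 peaks of a list did not recur in another list. An overlap of 1 bp was enough. Of WT peaks 28.7% (119 of 415) overlapped a KO peak, against 24.5% of all WT peaks, and 20.7% of KO peaks overlapped a WT peak, against 16.5%. Of WT peaks 19.8% (82) had a shControl peak and 28.9% (120) a shDdx5 peak, near the 21.5% and 29.9% of the whole list. Seen from the hairpin libraries the share was above that of the list. It was 20.4% of shControl peaks with a WT peak (16.8 to 24.6) against 11.4%, and 29.9% of shDdx5 peaks (25.6 to 34.5) against 16.4%. Between shControl and shDdx5 the shares were 26.6% against 19.4% and 26.9% against 20.2%. Each share seen from a hairpin library was divided by the low count for which the chromosome was chosen. It is thus not separate from that low count. Of the WT peaks with a q value of 0.05 or lower, 54.5% recurred in KO, 41.3% in shControl and 60.1% in shDdx5. Such shares were not particular to chromosome 7. Of the strongest 25% of WT peaks by p-value, 55.8%, 40.7% and 61.9% recurred on chromosome 7, against 54.3%, 47.1% and 62.9% elsewhere. Few peaks overlapped a no-antibody peak. These were 10 in WT (2.41%) and 10 in KO (1.74%), then 7 in shControl (1.72%) and 8 in shDdx5 (1.99%). The shares on the other chromosomes were lower, at 1.15%, 1.11%, 0.801% and 1.03%.

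Merged over the 4 S9.6 libraries, the peaks of chromosome 7 formed 1351 sites. Of these 381 were found in KO alone, 244 in WT alone, 257 in shControl alone and 198 in shDdx5 alone. Chromosome 7 held 6.21% of all sites found in WT alone (5.50 to 7.01) and 381 of the 6353 found in KO alone, but 2.79% of those in shControl alone (2.47 to 3.15) and 2.57% of those in shDdx5 alone (2.24 to 2.94). Of the sites in WT and KO but neither hairpin library, 29 of 278 were on chromosome 7, or 10.4% (7.36 to 14.6). Of the sites in both hairpin libraries but neither WT nor KO, 27 of 793 were, or 3.40% (2.35 to 4.91). The chromosome was chosen for its low hairpin counts, so these shares restate that deficit by site and are no further result.

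At 51 sites all 4 libraries had a peak, out of 850 such sites in the genome. By the midpoint of the WT peak 49 of them were promoters, and 5 had a no-antibody peak. The median pileup was 14 fragments in WT and 16 in KO, and 11 in shControl and 17 in shDdx5. ShControl was below WT at 40 of the 51 sites, KO at 19 and shDdx5 at 15. On the other chromosomes, shControl, KO and shDdx5 were below WT at 51.6%, 41.5% and 19.4% of the pairs of overlapping peaks. Those pairs are a wider set than sites found in all 4 libraries, for which no such share is given. The pileups were not adjusted for read depth.

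The 10 sites with the highest lowest fold were all promoters. At Relb (chr7:19628529-19629372) the fold enrichment was 5.32 in WT and 4.93 in KO, and 5.63 in shControl and 7.25 in shDdx5, with 24, 23, 22 and 31 fragments. Without antibody it was 4.45, so Relb was enriched in every library. At Pstk (chr7:131370695-131371598) the pileups were close, with 13, 13, 11 and 13 fragments and a fold of 4.94, 4.95, 4.91 and 5.24. At Ccdc9 (chr7:16285631-16286860) they were 20, 28, 19 and 23 fragments. Zfp78 (chr7:6362553-6363306) had 17, 16, 10 and 14.

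Napa had 18, 17, 17 and 20 fragments (chr7:16098179-16098850). At Arhgap35, the gene of a GTPase-activating protein, there were 18, 18, 11 and 20 (chr7:16614922-16615532), and at Hnrnpul1, of an hnRNP-like protein, 19, 19, 11 and 21 (chr7:25754785-25755685). Samd4b, of the Smaug family of RNA-binding proteins, had 16, 19, 13 and 14 (chr7:28436358-28437137). Hnrnpl, a regulator of splicing, had 22, 19, 19 and 22 (chr7:28810316-28810901). ShControl had fewer fragments than WT at each site named here, from 1 fragment fewer at Napa and Ccdc9 to 8 fewer at Hnrnpul1. These fragment counts are not adjusted for read depth either.

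The 5 strongest chromosome 7 peaks by q value were all at promoters in WT. They were Ap2a1, which encodes a subunit of the clathrin adaptor AP-2, Inpp5f, a phosphoinositide phosphatase, Wee1, the kinase that holds back entry into mitosis, Relb, and Far1, a fatty acyl-CoA reductase. Their summits had 30, 18, 24, 24 and 20 fragments, and the Ap2a1 peak ranked 36 in the whole list. The Wee1 peak (chr7:110121647-110122012) overlapped none in KO, shControl or shDdx5. In KO they were Ap2a1, Ccdc9, Fam168a, a site 3575 bp from the start of Sertad1, and Ptov1, with 27, 28, 21, 25 and 27 fragments.

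In shControl they were Relb, an intronic peak 1142 bp from the start of Zfp36, the mRNA decay factor, then Iqgap1, a cytoskeletal scaffold, Napa and Ccdc9, with 22, 21, 18, 17 and 19 fragments. The strongest ranked 90 in that list. In shDdx5 they were Dgat2, an enzyme of triglyceride synthesis, Cic, a transcriptional repressor, Relb, Ap2a1, and Akt1s1, an inhibitor of mTORC1, with 30, 35, 31, 28 and 31 fragments. The Akt1s1 peak overlapped none in WT or KO but one in shControl. The 5 strongest peaks without antibody had 6 to 9 fragments and none was at a promoter, the first lying in an intron of D7Ertd443e.

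The genes of the chromosome were counted as covered when a peak midpoint was within 1 kb of one of their start sites. Of 2023 protein-coding genes, 204 (10.1%) were covered in WT and 262 (13.0%) in KO, and 197 (9.74%) in shControl and 275 (13.6%) in shDdx5, against 11.3%, 16.0%, 14.7% and 23.1% of the 21938 genes of the genome. Without antibody 27 were (1.33%), against 1.24%. Chromosome 7 carries many receptor genes that fibroblasts do not use. Leaving out the olfactory and vomeronasal receptors, the shares were 12.5%, 15.9%, 12.1% and 16.9%, against 12.1%, 17.2%, 16.1% and 25.4% on the other chromosomes. The difference from the other chromosomes was thus found in shControl and shDdx5, and was small in WT and KO. The chromosome was chosen for its low counts in these hairpin libraries, so this is a description.

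Of 22 RNA processing and translation genes, 8 were covered in WT and 10 in KO, and 7 in shControl and 11 in shDdx5. Cnot3, of the deadenylase complex, U2af2, of the splicing factor U2AF, Hnrnpul1, Hnrnpl, and the arginine methyltransferase gene Prmt1 had a peak in all 4. The fold at Cnot3 was 3.69, 4.17, 3.73 and 6.47 in WT, KO, shControl and shDdx5. U2af2 had 3.58, 3.90, 3.33 and 3.62. Prmt1, with 3.08, 4.35, 3.96 and 4.86, also had a peak without antibody (3.16).

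Of 22 genes of replication, repair and the cell cycle, 5 were covered in WT and 8 in KO. In shControl 7 were covered, and in shDdx5 9. These shares were 22.7%, 36.4%, 31.8% and 40.9%, against 10.1%, 13.0%, 9.74% and 13.6% of all protein-coding genes of the chromosome. E2f8, a repressor of the E2F family, was covered in all 4 at 3.39, 3.10, 3.68 and 3.90-fold. Ercc2, the XPD helicase of nucleotide excision repair, the Bloom helicase gene Blm and Bccip, which encodes a partner of BRCA2, were covered in each but shDdx5. Blm had 4.85-fold in WT, 3.56 in KO and 3.11 in shControl. Polg, the mitochondrial DNA polymerase gene, lacked a peak only in shControl among the 4. Ercc1, the partner of the XPF nuclease, was found in both hairpin libraries alone, at 3.54 and 3.38-fold.

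Of 14 cytosolic ribosomal protein genes, 1 was covered in WT and 3 in KO, and 2 in shControl and 2 in shDdx5. These shares were 7.14%, 21.4%, 14.3% and 14.3%, against 10.1%, 13.0%, 9.74% and 13.6% of all protein-coding genes of the chromosome. Rps19, of the small subunit, had a peak in KO, shControl and shDdx5 (3.61, 3.31 and 7.15-fold). Rpl13a, of the large subunit, had one in shControl and shDdx5 alone (4.64 and 3.53).

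Of 27 imprinted genes, 4 were covered in WT and 5 in KO, and 5 in shControl and 3 in shDdx5. These shares were 14.8%, 18.5%, 18.5% and 11.1%, against 10.1%, 13.0%, 9.74% and 13.6% of all protein-coding genes of the chromosome. Nap1l4, a histone chaperone gene at the edge of the Kcnq1 domain, was covered in all 4, at 5.11, 3.93, 3.84 and 5.19-fold. Inpp5f had 7.31 in WT, 6.54 in KO and 4.11 in shDdx5, and no promoter peak in shControl. Peg3, the paternally expressed zinc finger gene, had a peak within 1 kb of its start in WT and KO alone (2.91 and 3.29). Further inside the gene, 1830 bp from the start, all 4 S9.6 libraries had one, at 3.84, 5.29, 5.01 and 3.51-fold. No peak was found at the promoters of Snrpn, Ndn, Igf2 or Cdkn1c in any list.

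Among 19 genes of fibroblasts and growth control, 5 were covered in WT and 3 in KO, and 2 in shControl and 6 in shDdx5. These shares were 26.3%, 15.8%, 10.5% and 31.6%, against 10.1%, 13.0%, 9.74% and 13.6% of all protein-coding genes of the chromosome. Relb is described above. A start site annotated to the growth factor receptor gene Fgfr2 had a peak in WT (4.07), KO (5.90) and shDdx5 (4.24) but not in shControl. The annotation extends this gene over chr7:130162451-133123350, so that start may be of a distant transcript and not the main promoter of the receptor gene. Of 8 fibroblast markers across the genome, Vim had a promoter peak in 4 of the 4 S9.6 lists and Fn1 in WT, KO and shDdx5. Col1a1, Col1a2, Col3a1, Thy1, Pdgfrb and S100a4 had none, and since peaks do not measure expression this neither bears out nor contradicts the labelled cell type.

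Of 92 zinc finger protein genes, 10 were covered in WT and 15 in KO, and 13 in shControl and 25 in shDdx5. These shares were 10.9%, 16.3%, 14.1% and 27.2%, against 10.1%, 13.0%, 9.74% and 13.6% of all protein-coding genes of the chromosome. Zfp78 and Zfp143, a transcriptional activator, had peaks in all 4. Zfp524 and Zfp788 were missed only in WT, Zfp473 only in KO, and Zfp180 and Zfp260 only in shControl. Zfp382 was found in WT and KO alone (4.36 and 4.99). Zfp112 (3.68 and 4.49), Zfp74 (4.09 and 4.11) and Zfp146 (4.91 and 3.61) were found in shControl and shDdx5 alone. These genes lie in clusters of close copies, where the placing of reads is uncertain.

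The large families of receptors and secreted proteins were almost bare. Of 243 olfactory receptor genes, 1 was covered in WT, 4 in KO and 0 in shControl and shDdx5, and of 154 vomeronasal receptor genes 0 were covered in any library. Of 88 genes of secretory and detoxifying families, 1 was covered, in shDdx5 (1.14%). For the olfactory receptors the shares were 0.412% in WT and 1.65% in KO. All protein-coding genes of the chromosome gave 10.1%, 13.0%, 9.74% and 13.6% in WT, KO, shControl and shDdx5. None of the genes of the receptor, secretory and detoxifying families had a promoter peak without antibody.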

How the data were processed

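CUT&Tag libraries of MEFs were sequenced and mapped to mm10, and the authors called peaks with MACS2 in each library on its own, without the no-antibody library as input. The submitters' processing notes name Trimmomatic, Bowtie2 and MACS2 2.1.2. The methods of the paper give a later version of MACS2, and it is not known which of them made the lists. The deposited lists give per peak a fold ratio over local background, −log10 p-values and q-values, a score that follows from the p-value, and the summit. Read depth is not in the lists, and the numbers of peaks, 4314 to 12259, limit the precision. The calling threshold and the handling of duplicates are not given in the sources used here.

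Peaks were counted per chromosome and per bin of 5 Mb with Python 3.11.15, pandas 2.3.3 and scipy 1.17.1. Summit pileups and backgrounds were solved from the fold and the p-value under the Poisson model of MACS2, which gave a whole pileup for 6477 of 6481 WT peaks and left out at most 4 in any list; the solution was checked on simulated peaks. Genes and promoters came from GENCODE on mm10 and sequence from RefSeq on GRCm38. Shares have Wilson 95% intervals, ratios intervals on the log scale. With 1 library per group no test was run. Named were the 5 strongest peaks per list, the 10 sites shared by all S9.6 lists with the highest lowest fold, members of the gene lists covered in at least 3 of 4 S9.6 lists, or in WT and KO alone or both hairpin lists alone (at most 5 of each), 5 bins with the most WT peaks and 5 with the largest fall, and the 2 longest gaps per list. The members and lists were chosen with earlier results of these data known. Human HEK293 libraries of the series were not used here. Some named items are not reported here.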

Additional observations from a re-analysis of the deposited data

Results flagged for a closer look

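The chromosome 7 share of the list was lower in KO than in WT, with a ratio of 0.935, and higher in shDdx5 than in shControl, with a ratio of 1.03. These comparisons, each of a perturbed library with its control, were picked out because they go in opposite directions. The difference between them was not tested, since each group holds 1 library, and both 95% intervals include 1.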

How the results depend on the processing

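No paired analysis was possible because each group holds 1 library. Under the alternatives, 70 values stayed within the 95% interval of the value reported or, for counts of bins, within a factor of 1.5 of the count, and 58 did not, and none of the ratios to WT of shControl and shDdx5 rose to 1. The causes of the moves were not tested. Requiring q of 0.05 or lower gave chromosome 7 shares of 4.10% in shControl and 4.02% in shDdx5 and a ratio of shControl to WT of 0.607. Requiring 4-fold enrichment gave shares of 4.60%, 5.07% and, without antibody, 5.17%, and ratios of 0.739 and 0.814. The same number of strongest peaks gave shares of 3.87% and 4.33% and ratios of 0.612 and 0.685. Promoter peaks alone gave shares of 7.98%, 7.14%, 5.45%, 4.98% and 11.3% in WT, KO, shControl, shDdx5 and no antibody, and ratios of 0.683 and 0.624. Peaks away from promoters gave 5.47%, 5.33%, 2.51% and 2.24% in the S9.6 lists, and a ratio of 0.409 in shDdx5.

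Counts of bins change with the number of bins compared. Bins of 10 Mb were lower than WT in 8 of 15 for KO, 14 of 14 for shControl and 14 of 14 for shDdx5, and bins of 2.5 Mb in 38 of 40 for shDdx5. With q of 0.05 or lower 13 of 18 bins were lower in shControl, and with the same number of strongest peaks 16 of 21 and 16 of 22. No share over all bins of the genome is given for any of these settings, so they are not read against a background.

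Where each peak of a pair had to cover 50% of the other, the overlaps were 19.5% of WT with KO, 14.1% of KO with WT, 13.0% and 18.3% of WT with shControl and shDdx5, 13.3% and 18.9% of shControl and shDdx5 with WT, 12.8% of shControl with shDdx5 and 12.9% the other way. At q of 0.05 or lower they were 54.5%, 40.1%, 41.3%, 60.1%, 40.4%, 38.5%, 44.7% and 32.9%. The promoter share within 3 kb was 57.1% in WT, 54.6% in KO, 60.6% in shControl, 72.6% in shDdx5 and 28.3% without antibody, and at q of 0.05 or lower 69.2%, 59.0%, 61.0%, 72.4% and 8.70%. With protein-coding genes only it was 9.54% without antibody. The counts of peaks set the limit, since no bin held more than 47 of them in any list.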

Other observations

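Genes of chromosome 7 followed several patterns across the libraries. Of its 1625 protein-coding genes other than olfactory and vomeronasal receptors, 57 (3.51%) had a promoter peak in all 4 S9.6 lists, against 4.57% of the 18847 such genes of the other chromosomes. A peak in WT alone was found at 43 (2.65%, against 1.93%), in KO alone at 66 (4.06%, against 3.50%), in shControl alone at 44 (2.71%, against 3.81%) and in shDdx5 alone at 77 (4.74%, against 8.26%). In WT and KO alone there were 25 genes (1.54%, against 0.642%), and in both hairpin lists alone 21 (1.29%, against 2.55%). Neither count is separate from the low hairpin counts for which the chromosome was chosen. In KO and shDdx5 alone there were 37 (2.28%, against 3.24%). In WT and shControl alone there were 9 (0.554%, against 0.377%). KO and shDdx5 covered more promoters than WT and shControl throughout the genome, so the 37 and the 9 are not read against each other. Among the 37 were Ccne1, the gene of cyclin E1 (4.55-fold in KO and 4.78 in shDdx5), Fanci, of the Fanconi anaemia pathway (3.71 and 5.08), and Snrnp70, of the U1 spliceosomal particle (4.30 and 4.71). These 3 genes were picked after their values were seen.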
